A study of Mus musculus with 2 samples.

Results

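Receptors and peptidases of the angiotensin, endothelin and urotensin systems were examined in the mitral valve, as 9 genes of the 33640 in the deposited table, taken by gene symbol. They were chosen for the part of angiotensin signalling in Marfan syndrome and because Uts2r and Mme had lower values in the heterozygous pool, so the values below describe these genes and test nothing. The set holds 1 precursor gene (Agt), 3 peptidase genes (Ace, Mme and Ece1) and 5 receptor genes (Agtr1a, Agtr2, Ednra, Ednrb and Uts2r). RNA came from 2 groups of mice aged 5 months, wild type (WT) and Fbn1C1039G/+, which are heterozygous for the C1039G missense allele of the fibrillin-1 gene and serve as a model of Marfan syndrome. Valves from 8 hearts of each genotype, from males and females together, were pooled into 1 library. The labels name no treatment in either group. Without replicates, no value carries an error, and each difference is one between 2 libraries of mixed tissue from several mice. Values are TPM, a transcript level divided by transcript length and set to a fixed library total, from which sequencing depth cannot be read. The wild-type value is given first throughout. Differences are those of log2(TPM + 1), taken as heterozygous minus wild type, and a size of at least 1 is called 2-fold.

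In the renin-angiotensin system, the liver protein angiotensinogen is cut by renin to angiotensin I, and angiotensin-converting enzyme trims this to angiotensin II. Angiotensin II acts mainly on the AT1 receptor, which couples to Gq proteins and drives contraction, growth and matrix production, while the AT2 receptor often opposes it. Endothelin-converting enzyme releases endothelin-1, a strong constrictor made by endothelium, which acts on the ETA and ETB receptors, and urotensin II acts on its own Gq-coupled receptor. Neprilysin, the product of Mme, breaks down many small peptides at the cell surface, among them angiotensins, bradykinin, endothelins and natriuretic peptides. In Marfan syndrome, blockade of the AT1 receptor has been studied as a treatment of the dilating aorta.

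The heterozygous pool had less mRNA for the urotensin receptor (Uts2r), for neprilysin (Mme) and for both endothelin receptors, and more for angiotensin-converting enzyme (Ace). The most abundant gene, Ece1, differed little, and the angiotensin receptors were near or at 0 in both pools. Of the 9 genes, 4 had a higher TPM in the heterozygous pool, 4 a lower TPM, and Agtr2 was listed at 0 in both. Uts2r and Mme were at least 2-fold lower, and none was 2-fold higher. Among the 17004 genes that averaged 1 TPM or more over both pools, 1.72% were at least 2-fold lower and 4.81% at least 2-fold higher, while 64.9% had any higher value and 35.1% any lower value. Nothing is read from the members' counts against these shares, since Uts2r and Mme were picked for their lower values. Of the 9 genes 7 reached a mean TPM of 1, and Agt and Agtr2 did not. The median difference over the 17004 genes was 0.14, so a gene at 0.14 stands where the middle of all genes stands. In mixed tissue, fewer cells of a type and less RNA per cell cannot be told apart.

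**Figure D1:**
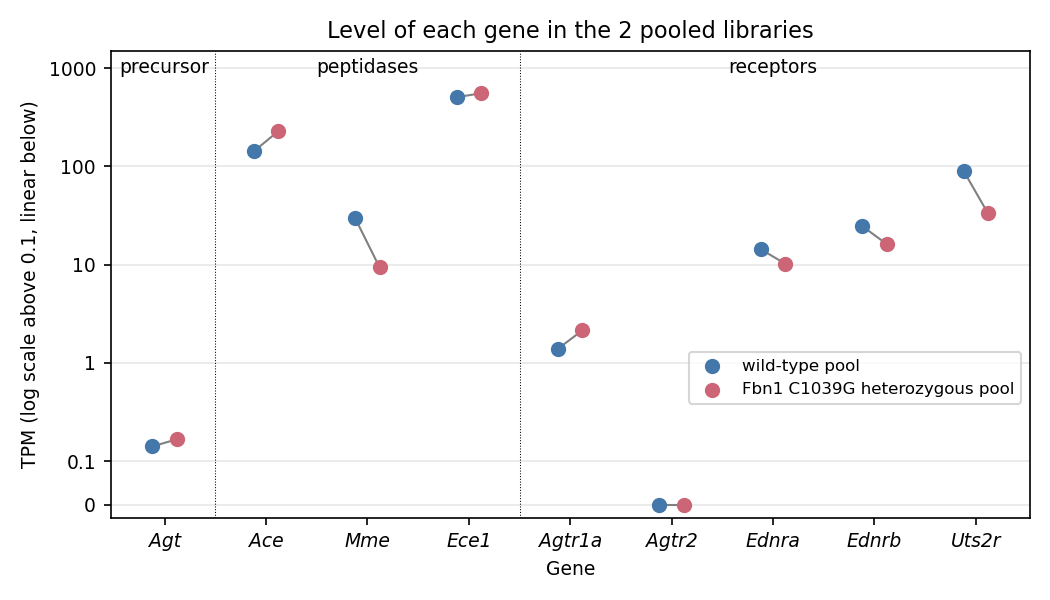
TPM of the 9 genes (x axis, grouped by role) in the wild-type and heterozygous pools (y axis, log scale above 0.1 TPM and linear below), 1 point per library with a line joining the 2 pools. Uts2r (89.7 and 33.2 TPM) and Mme (29.5 and 9.36 TPM) show the steepest lines downward, Ace (142 and 227 TPM) lies higher in the heterozygous pool, and Agtr2 is at 0 in both.

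The precursor gene Agt, on chromosome 8 at 124556534 to 124569706 (mm10), stood at 0.141 and 0.166 TPM, near 0 in both pools. Renin, the enzyme that cuts angiotensinogen, was likewise scarce, with Ren1 at 2.09 and 2.66 TPM. The liver is the main source of angiotensinogen in the body, and the protein itself was not measured here.

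Peptidase genes were by far the larger share of the mRNA, with summed levels of 676 and 791 TPM, against 130.0 and 61.7 TPM for the 5 receptor genes together. Of the receptor sums, Uts2r, which was picked for its lower value, made up 89.7 and 33.2 TPM. Ece1, which makes active endothelins from their precursors, was the most abundant member, at 504 and 554 TPM. Its difference of 0.14 and the median over all genes tested are the same to 2 decimals. The gene lies on chromosome 4 at 137862237 to 137965229. Its relative Ece2 was at 16.3 and 19.8 TPM, so that Ece1 made up 96.9% and 96.6% of their sum.

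Ace, which encodes angiotensin-converting enzyme, a membrane peptidase of endothelium that also breaks down bradykinin, went from 142 TPM in wild-type valves to 227 TPM in heterozygous valves. This is a ratio of 1.60 and a difference of 0.67. Of the 1390 genes averaging 100 TPM or more, 58 had a difference at least as high, Ace included, and the central 95% ran from −0.61 to 0.78. Ace therefore stood high within the spread of genes of its abundance and did not leave it. The gene lies on chromosome 11 at 105967945 to 105989964, and a predicted antisense gene, Gm11651, overlaps 295 of its 5287 exonic bases. Strand-specific counting is not given in the sources used here, so reads of that stretch cannot be assigned to one of the 2 genes.

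Mme, which encodes neprilysin, had 29.5 TPM in wild-type valves and 9.36 TPM in heterozygous valves. The wild-type level was 3.15 times the heterozygous level, a difference of −1.56. Of the 5453 genes with a mean TPM from 5 to 20, 35 had a difference at least as low, Mme included, and the central 95% ran from −0.76 to 1.27. Mme was thus outside the range that held most genes of its abundance. It was picked for its lower value, so this place is a description and tests nothing. The gene lies on chromosome 3 at 63241537 to 63386030 and has 7 annotated coding transcripts with 7 different starts, and the deposited value is 1 number for the gene.

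The peptidases can also be set against each other within a library, where no scaling between libraries enters. The level of Ace was 4.82 times that of Mme in the wild-type pool and 24.3 times in the heterozygous pool. Ece1 was at 17.1 times the level of Mme in the wild-type and 59.2 times in the heterozygous pool. Mme was picked for its lower value, so the rise of both ratios follows in part from that choice. Heterozygous over wild type, Ace itself had a ratio of 1.60 and Ece1 of 1.10. Against Ece1, Ace made up 22.0% of their summed TPM in wild-type valves and 29.1% in heterozygous valves.

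The angiotensin receptors were scarce. Agtr1a, the main AT1 receptor gene of mice, had 1.39 and 2.14 TPM. Its difference of 0.39 lies well inside the central 95% of the 4424 genes with a mean TPM from 1 to 5, which ran from −1.44 to 1.93, and 1655 of them had a difference at least as high. Agtr1b, the closely related second AT1 gene of rodents, was at 0.0842 and 0.499 TPM. Of the 2685 different 31-base words in the coding transcripts of Agtr1a, 93 also occur in Agtr1b, so some reads could be divided between them by estimate. Agtr2, the AT2 receptor gene on chromosome X at 21484544 to 21489164, was listed at 0 in both pools, and Agtr1a thus made up 100% of the summed Agtr1a and Agtr2 TPM in each. The depth is unknown, so a value of 0 sets no upper limit. Mas1, the receptor for angiotensin 1-7, was at 7.75 and 12.3 TPM, above Agtr1a in both pools. Agtrap, whose product promotes internalisation of the AT1 receptor, was at 19.2 and 13.8 TPM.

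Both endothelin receptor genes were lower in the heterozygous pool by similar ratios. Ednrb, the ETB receptor of endothelium and of neural crest derivatives such as melanocytes, had 24.6 TPM in wild-type and 16.2 TPM in heterozygous valves, differing by −0.57. Of the 5737 genes with a mean TPM from 20 to 100, 118 had a difference at least as low, and the lower limit of the central 95% was −0.53. Ednra, the ETA receptor of smooth muscle and other mesenchymal cells, was at 14.3 and 10.2 TPM, a difference of −0.45, and 404 of the 5453 genes from 5 to 20 TPM were at least as low. Ednrb was just past the range of most genes of its abundance class and Ednra inside that of its own, and neither was 2-fold lower. The mean of Ednrb, 20.4 TPM, is close to the limit of 20 TPM between the 2 classes. Its difference of −0.57 lies inside the central 95% of the genes from 5 to 20 TPM, which ran from −0.76 to 1.27. The heterozygous level was 0.660 of the wild-type level for Ednrb and 0.713 for Ednra. Ednra made up 36.8% of their summed TPM in wild-type valves and 38.6% in heterozygous valves, so their balance moved by 1.83 percentage points while the sum went from 38.9 to 26.4 TPM. Ednrb lies on chromosome 14 at 103814625 to 103844402 and Ednra on chromosome 8 at 77663031 to 77724464, where the exons of the transcript 4933431K23Rik, on the other strand, share 91 of its 5476 exonic bases.

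Uts2r, the urotensin II receptor, was the most abundant receptor gene of the set, with 89.7 TPM in wild-type and 33.2 TPM in heterozygous valves. The wild-type level was 2.70 times the heterozygous level, a difference of −1.41. Of the 5737 genes with a mean TPM from 20 to 100, 11 had a difference at least as low, Uts2r included. Uts2r lay far below the lower limit of −0.53 for that range of abundance. Since it was picked for its lower value, its rank and place describe that choice and test nothing. It lies on chromosome 11 at 121160271 to 121161973 as a single exon of 1703 bases, and none of the 31-base words of its transcript occurs in another annotated gene. In the wild-type pool its level was 3.65 times that of Ednrb and in the heterozygous pool 2.05 times, so it remained the highest of the 5 receptors in both. The fall of this ratio follows in part from the choice of Uts2r for its lower value. Its ligands were scarce, with Uts2 (urotensin II) at 1.22 and 0.689 TPM and Uts2b (the urotensin-related peptide) at 0.424 and 0.326 TPM.

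**Figure D2:**
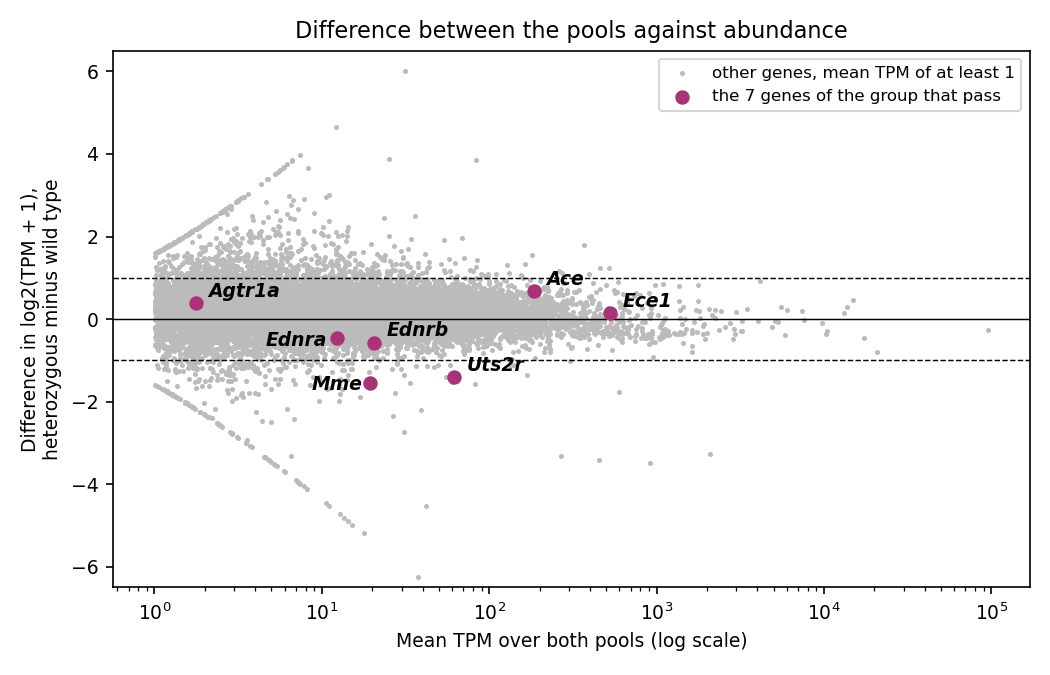
Heterozygous minus wild-type log2(TPM + 1) (y axis) against the mean TPM of both pools (x axis, log scale), for the 17004 genes averaging 1 TPM or more, with the 7 members that pass marked and dashed lines at −1 and 1. Uts2r (−1.41) and Mme (−1.56) lie under the lower dashed line, and the other marked genes lie between the lines.

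The bases just before a RefSeq start are shown for genes that were lower in the heterozygous pool, so that the letters can be set beside those values. RefSeq windows (GRCm38.p6) were found for 8 of the 9 members. Those printed are the 250 bases before the first listed start of Uts2r, Mme and Ednrb, which overlap no annotated exon. Ednra is left out because its window runs into an exon of its own. Each is written 5′ to 3′ on the gene's strand, with capitals for a GC box (GGGCGG) or a CCAAT box (CCAAT) on either strand.
Uts2r: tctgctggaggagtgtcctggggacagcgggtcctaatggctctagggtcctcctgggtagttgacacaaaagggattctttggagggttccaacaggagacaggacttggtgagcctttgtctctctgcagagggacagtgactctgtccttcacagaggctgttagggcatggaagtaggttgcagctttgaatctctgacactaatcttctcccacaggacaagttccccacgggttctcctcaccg
Mme: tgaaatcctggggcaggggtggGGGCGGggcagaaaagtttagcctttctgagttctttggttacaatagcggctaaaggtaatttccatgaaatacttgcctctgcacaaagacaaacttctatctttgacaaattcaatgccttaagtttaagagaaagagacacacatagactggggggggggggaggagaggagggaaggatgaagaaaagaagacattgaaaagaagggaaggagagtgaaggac
Ednrb: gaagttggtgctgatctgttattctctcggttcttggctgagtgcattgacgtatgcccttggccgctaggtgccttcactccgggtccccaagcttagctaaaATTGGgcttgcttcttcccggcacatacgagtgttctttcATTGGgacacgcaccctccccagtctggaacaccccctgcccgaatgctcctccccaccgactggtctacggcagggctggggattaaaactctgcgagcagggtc
The Uts2r window is chr11:121160021-121160270 (plus strand), the Mme window chr3:63294961-63295210 (plus strand) and the Ednrb window chr14:103843702-103843951 (minus strand). The Mme and Ednrb windows lie inside the gene spans given above, since GENCODE also lists transcripts that start further upstream. Uts2r has no capital letters, Mme holds 1 GC box and Ednrb 2 CCAAT boxes. The TATA box (TATAAA) was searched too and is in none of the 3. Of 32851 such windows in the RefSeq table, 32.7% hold a GC box, 33.8% a CCAAT box and 12.4% a TATA box on either strand. The windows hold 3 CpG pairs for Uts2r, 2 for Mme and 11 for Ednrb, against a median of 6 over those windows, so Ednrb is the one above the median. Mme has 3 windows in that table, and the other 2 hold 27 CpG pairs each, so the start shown is the CpG-poor one. A match is a run of letters and not a known binding site.

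Other genes of the same systems were taken from lists. Of 22 other renin-angiotensin genes in the table, 17 averaged 1 TPM or more, and of these 12 were higher and 5 lower in the heterozygous pool, with a median of 0.25 against 0.14 over all genes tested. Of all genes tested, 64.9% had a higher value as reported and 48.7% with both libraries quantile-normalised. With that normalization the split of these 17 was 10 and 7. Enpep alone of these was past 2-fold on the lower side (16.9 and 7.66 TPM, differing by −1.05). It encodes aminopeptidase A, which converts angiotensin II to angiotensin III. Anpep, which encodes the next enzyme in that series, aminopeptidase N, was at 162 and 133 TPM. Of the enzymes that cut angiotensins to shorter forms, Prcp was at 60.4 and 80.5 TPM and Thop1 at 4.32 and 8.96 TPM. The renin receptor gene Atp6ap2 was at 29.8 and 28.4 TPM. Mme and Enpep were thus both lower, and Ace and Thop1 higher, among peptidases that act on the same peptides.

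Endothelin ligands were low. Edn1, the gene of endothelin-1, was at 3.70 and 5.01 TPM, Edn2 at 0.194 and 0.0758 TPM, and Edn3 at 0.176 and 0.0314 TPM. Edn1 had the higher value in the heterozygous pool, where both of its receptors had the lower. The difference of Edn1 was 0.35, against a median of 0.25 for genes with a mean TPM from 1 to 5. It lay well inside the range that held most of those genes, which ran from −1.44 to 1.93. Of the other genes of the neprilysin family, 3 of 5 reached a mean TPM of 1, and their differences ran from 0.10 to 0.51. The highest was Phex, an enzyme of phosphate balance, at 1.87 and 3.08 TPM. After centring on the median or quantile normalization, 1 of these 3 was below 0. In the kinin system, whose peptide bradykinin is cut by both Ace and neprilysin, the constitutive receptor Bdkrb2 was listed at 0 in both pools, and 2 of 10 genes reached a mean TPM of 1 (Cpm at 1.22 and 2.003 TPM, Xpnpep2 at 4.69 and 5.23 TPM).

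Among other substrates of neprilysin and their receptors, 6 of 13 measured genes were higher and 7 lower, with a median of −0.01. This count and the next are to be read against all genes tested, whose median was 0.14. Of all genes tested, 64.9% had a higher value as reported and 48.7% after quantile normalization. The atrial natriuretic peptide gene Nppa was at 117 and 179 TPM. Ramp2, a partner of the adrenomedullin receptor, was at 311 and 309 TPM, and its relative Ramp1 at 3.94 and 2.16 TPM. Among 19 other measured receptors of vascular tone, 9 were higher and 10 lower, with a median of −0.10, and after quantile normalization 4 were higher and 15 lower. Adra1a, an adrenergic receptor, was the 1 gene of these past 2-fold on the lower side (3.37 and 1.12 TPM). The abundant receptors F2r (309 and 266 TPM), a thrombin receptor, and Cmklr1 (249 and 212 TPM), a chemerin receptor, differed by −0.21 and −0.23.

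Downstream genes were higher more often than lower, as were all genes tested. Of 30 genes for Gq and G12/13 signalling and receptor desensitisation, 25 were higher and 5 lower, with a median of 0.22 and none 2-fold different. Over all genes tested the share with a higher value was 64.9%, and it was 48.7% after quantile normalization, when the split of these 30 was 19 and 11. The phospholipase genes Plcb4 (257 and 307 TPM) and Plcb2 (3.55 and 7.57 TPM) were higher, and the receptor kinase gene Grk2 was at 24.2 and 14.1 TPM. Of 27 measured genes known to be induced through AT1 or endothelin receptors, 23 were higher and 4 lower, with a median of 0.35 against 0.14 over all genes tested, and 20 and 7 after quantile normalization, to be read against the same shares. Among those at least 2-fold higher were Ccl2, a monocyte chemokine (30.6 and 85.1 TPM), and Il6, a cytokine (listed at 0 and 4.95 TPM). Inflammatory signals are known to induce both genes too. In the same library 5 of 7 measured neutrophil markers were higher and 2 lower, as given below. The part of inflammatory signals and of neutrophils in these values was not tested. The matrix genes Thbs1 (399 and 502 TPM) and Mmp2 (338 and 374 TPM) differed less.

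**Figure D3:**
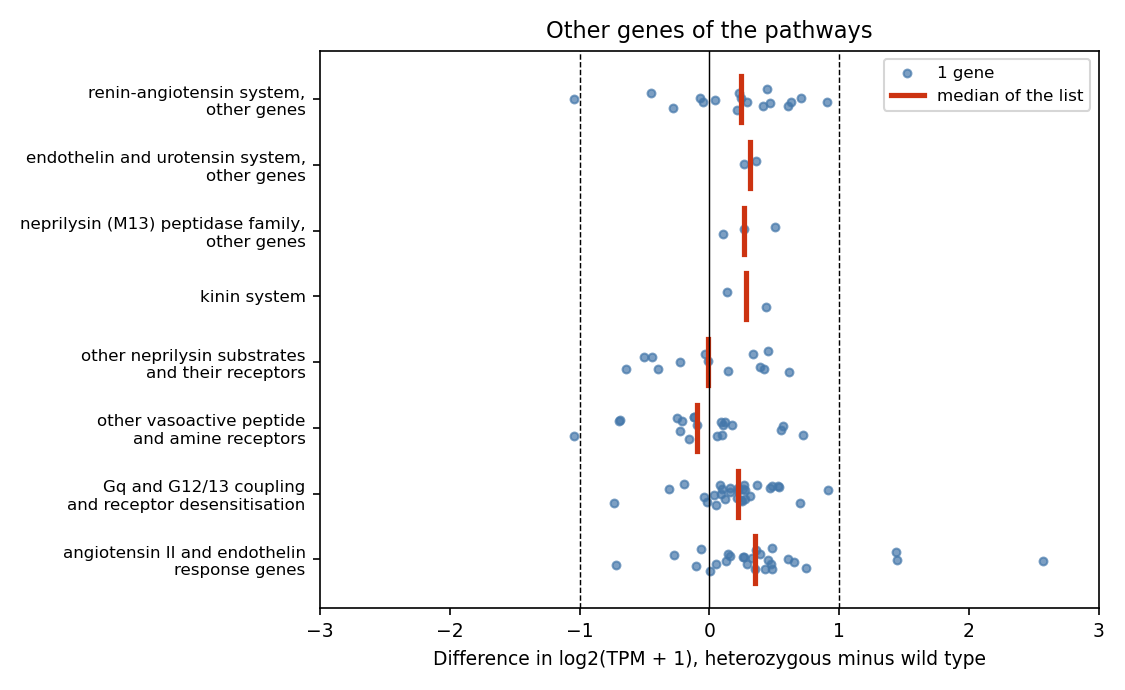
Heterozygous minus wild-type log2(TPM + 1) (x axis) for genes averaging 1 TPM or more in 8 lists of pathway genes (y axis), 1 point per gene with the median of the list as a bar. The medians run from −0.10 (other vasoactive receptors) to 0.35 (response genes), and dashed lines mark −1 and 1.

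Markers of the cells that carry these genes were set beside them. Counts of higher and lower markers are to be read against the shares over all genes tested. The share with a higher value was 64.9% as reported and 48.7% after quantile normalization. Valve interstitial cell markers were abundant in both libraries, with Dcn at 11409 and 9304 TPM and Bgn at 5396 and 5161 TPM. Of the 11, 7 were higher in the heterozygous pool (6 after quantile normalization) and 4 lower. The 2 with the largest differences, Postn (1269 and 2263 TPM) and Tbx20 (703 and 1253 TPM), were among the higher. Markers of blood endothelium and endocardium, where Ace, Ece1 and Ednrb are known to be expressed, had 4 of 12 higher and 8 lower, a median of −0.08 and a summed level of 951 and 938 TPM. Of these, Pecam1 was at 223 and 241 TPM and Kdr at 18.5 and 12.3 TPM. The part of endothelial cells in the values of Ace, Ece1 and Ednrb was not tested. Smooth muscle and pericyte markers, which accompany Ednra in vessels, had 5 of 11 higher and 6 lower, with summed levels of 506 and 577 TPM, or 319.9 and 309 TPM without the pericyte gene Rgs5.

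Melanocyte markers, of a cell type that carries Ednrb, were lower in 7 of 8 genes, with a median of −0.66 and a summed level of 148 and 88.2 TPM, and Dct, a pigment enzyme, was at 68.2 and 31.1 TPM. Lymphatic endothelial markers were lower in 6 of 7 genes, with summed levels of 373 and 213 TPM, or 129 and 118 TPM without Ccl21a. At least 2-fold lower were 3 of the 7, among them Ccl21a and Mmrn1 (12.2 and 1.45 TPM). Lyve1 was the 1 higher marker (44.7 and 58.8 TPM) and is a large part of the sum without Ccl21a. Schwann cell markers were lower in 4 of 6 measured genes, with 102 and 83.7 TPM. Cardiac muscle markers were lower in 9 of 10 genes, with summed levels of 2838 and 1989 TPM, as in Myl2 (407 and 201 TPM). Cartilage-like markers were lower in 4 of 4 measured genes, with 1377 and 617 TPM, of which Chad made up 919 and 268 TPM. The part of these cell types in the lower values of Ednrb, Ednra, Uts2r and Mme was not tested.

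Blood cell markers also differed between the libraries. Neutrophil markers were higher in 5 of 7 measured genes (4 after quantile normalization) and lower in 2, with summed levels of 18.5 and 105 TPM. At least 2-fold higher were 4 of the 7, and the differences ran from −0.35 to 3.87. Ly6g and Elane were at 0 in both. Of the sums, S100a9 made up 2.34 and 48.0 TPM and S100a8 0.369 and 16.2 TPM. Macrophage markers were higher in 9 of 10 genes (2105 and 2508 TPM summed), and mast cell markers in 8 of 8 measured genes. After quantile normalization the counts were 8 of 10 for macrophages and 7 of 8 for mast cells. Mcpt4, a mast cell chymase known to form angiotensin II, was at 32.0 and 37.3 TPM, and the related protease gene Cma1 at 7.88 and 12.7 TPM. T cell markers were lower in 6 of 7 genes, with 85.3 and 54.9 TPM summed. Of 7 B cell markers, 2 reached a mean TPM of 1, Rag1 at 4.39 and 0.183 TPM and Ms4a1 at 1.66 and 2.33 TPM. The summed level of the 7 was 8.51 and 4.93 TPM, and without Rag1 it was 4.11 and 4.75 TPM, the other way round. Mme is known to be expressed by lymphoid progenitors as well as by stromal cells, and the part of lymphocytes in its lower value was not tested. Red blood cell markers were at 6801 and 687 TPM summed and lower in 5 of 5 genes. The 4 globin genes were at least 2-fold lower, while the remaining marker differed by −0.23.

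**Figure D4:**
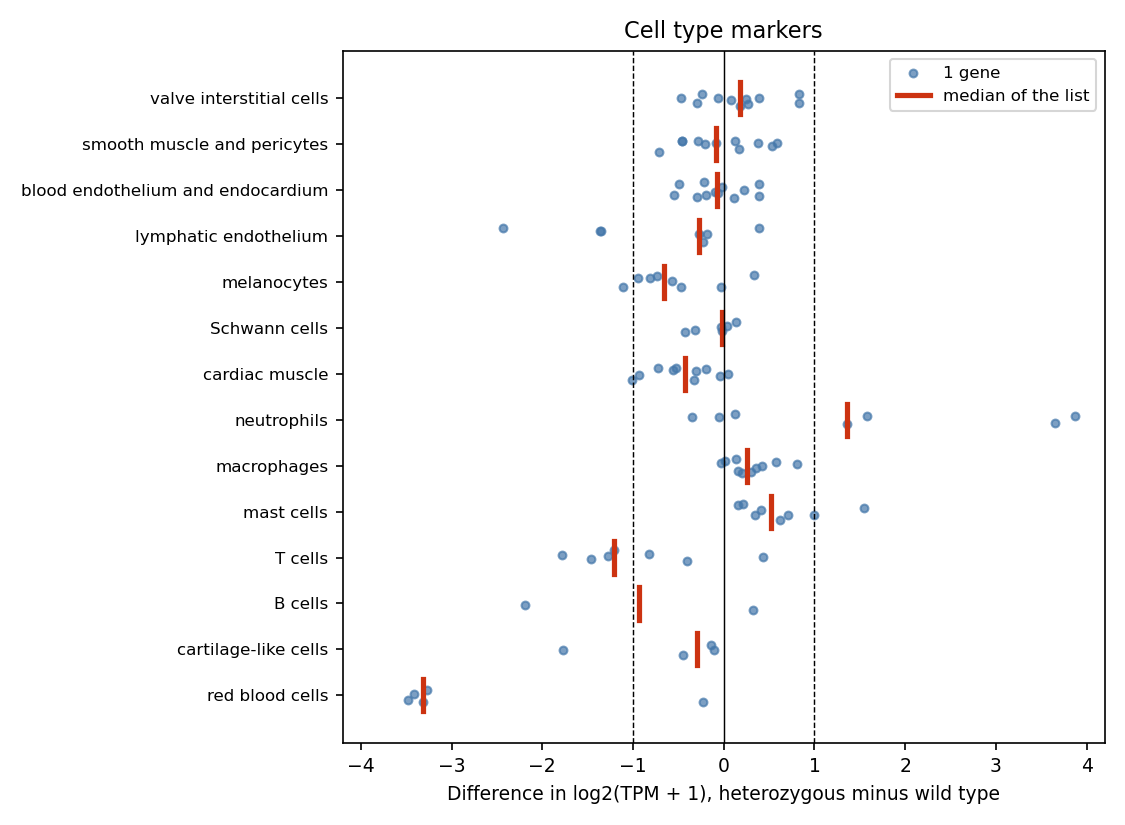
Heterozygous minus wild-type log2(TPM + 1) (x axis) for markers averaging 1 TPM or more in 14 cell type lists (y axis), 1 point per gene with the median as a bar and dashed lines at −1 and 1. Endothelial (−0.08) and smooth muscle (−0.08) medians lie near 0, melanocyte (−0.66) and T cell (−1.21) medians lie lower, and the neutrophil median (1.36) lies higher.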

How the data were processed

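Per the labels' protocols, total RNA of mitral valve tissue was amplified (Ovation RNAseq system) before Nextera XT library preparation. The submitters' processing notes name Trimmomatic, HISAT2, kallisto and the mm10 genome, while the version and role of each and the annotation are not given. The authors deposited 1 TPM value per gene symbol and library, and the column totals are 999964 and 999945. TPM holds no depth, so no interval or floor was computed, and amplified reads are not independent molecules. TPM moves for every gene when an abundant transcript changes.

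Columns were matched to libraries by genotype. With 1 library per genotype no test was possible. Differences were log2(TPM + 1), and genes counted averaged 1 TPM or more. The spread at like abundance was read from genes with means from 1 to 5, 5 to 20, 20 to 100 and at least 100 TPM. No gene is named for likeness of pattern, since 2 libraries give each gene 1 difference.

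The members and lists were chosen with earlier results of these data known. All members, the known partners of each (such as Edn1 and Uts2), and from each list the 2 most abundant genes and the 2 with the largest difference could be named, and some items this rule takes are left out of the text. Renamed symbols in the lists that the table does not use were left out. Coordinates, transcripts and 31-base words come from GENCODE M21 (GRCm38, the mm10 assembly), and upstream windows from RefSeq. Counting was tested on simulated data. Python 3.11.15, pandas 2.3.3 and NumPy 2.4.6 were used. Alternatives were pseudocounts of 0.1 and 5, centring on the median of genes with at least 10 TPM, quantile normalization, rescaling after removal of ribosomal protein, mitochondrial, globin, Rik and Gm genes, and no filter or a minimum of 5 TPM.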

Additional observations from a re-analysis of the deposited data

How the results depend on the processing

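Under the 5 alternative scalings and pseudocounts, Uts2r stayed at least 2-fold lower (−1.54 to −1.31), as did Mme (−1.71 to −1.26). Ednrb ran from −0.71 to −0.48, Ednra from −0.60 to −0.34, Ace from 0.56 to 0.68, Agtr1a from 0.16 to 0.59 and Ece1 from 0.02 to 0.20. Agt, at 0.03 as reported, became −0.080 when differences were centred on the median (a shift of 0.11) and −0.038 after quantile normalization. The number of members higher in the heterozygous pool, 3 of the 7 that averaged 1 TPM or more, was 3 under each of these 5 alternatives. Only a change in which members are counted moved it. It was 4 with no filter, which adds Agt and Agtr2, and 2 with a minimum of 5 TPM, which leaves out Agtr1a.

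Counts over all genes moved. From 818 higher and 293 lower, they became 1264 and 464 with a pseudocount of 0.1, 209 and 87 with a pseudocount of 5, 540 and 462 after quantile normalization, 360 and 103 with a minimum of 5 TPM, and 499 higher and 278 lower without the abundant gene classes. The higher share of these calls was 73.6% as reported, 64.4% after centring, 64.2% without the abundant classes and 53.9% after quantile normalization. Fewer genes are tested with the higher minimum, and a larger pseudocount shrinks differences of low genes by construction; the cause of the other moves was not tested. Of the list medians, that of the other endothelin and urotensin genes became −0.10 with no filter, which adds genes near 0 TPM, and that of the other neprilysin substrates became 0.14 with a minimum of 5 TPM. The share of Ednra among endothelin receptors moved by 1.83 points as reported and 1.45 after quantile normalization.

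No paired analysis was possible because each genotype has 1 library, and for the same reason no library was left out. Depth is unknown, which limits the precision of low values such as those of Agt, Agtr1a, Agtr2 and the ligand genes.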

Other observations

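The nearest protein-coding genes on each side of the members that differed most were read as well. Beside Uts2r lie Tex19.1, 11952 bases before it (listed at 0 and 0.0610 TPM), and Ogfod3, 15618 bases after it (16.8 and 15.1 TPM). Beside Mme, Gpr149 was at 0.196 and 0.233 TPM and the predicted gene Gm34302 was listed at 0 in both pools. Next to Ednrb, Slain1, 109718 bases away, was at 4.68 and 1.25 TPM, and Pou4f1, on its other side, at 0.303 and 0.441 TPM. Next to Ace, Cyb561, which encodes a cytochrome b561 and lies 14609 bases away on the other strand, was at 21.8 and 34.1 TPM, and Ace3 was at 0.117 TPM and listed at 0. These genes were named for their place and not for their values, and 1 library per genotype gives no test of any of them.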
